A study of Mus musculus with 6 samples.

Results

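The miR-183, miR-96 and miR-182 cluster is a set of microRNAs (miRNAs, short RNAs that repress messenger RNAs through base pairing) cut from a single primary transcript. It was followed here through the array probes named mmu-miR-183-5p, mmu-miR-96-5p and mmu-miR-182-5p, which are 3 of the 1118 probes named for mouse miRNAs. The RNA came from exosomes, small vesicles shed by cells, in the supernatant of purchased mouse endothelial cells, the lining cells of blood vessels. Cultures were held for 48 h at 3.5 mM inorganic phosphate (high phosphate, 3 arrays) or at 0.9 mM (normal phosphate, 3 arrays). All of them grew with 12% fetal bovine serum, heparin and endothelial cell growth supplement. The sources used here do not say whether serum vesicles were removed or whether each array of a group had a culture of its own, so a p-value describes variation among these arrays that may be technical. The study's stated concern is calcification of arteries in patients with end-stage renal disease.

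The cluster is best known from sensory organs, where photoreceptors, hair cells and sensory neurons express it together, and it is also expressed in epithelia and in many epithelial tumours. Mutations in the seed of miR-96 cause progressive hearing loss in mice and people. The seed, bases 2 to 8 from the 5′ end, is the stretch that mainly selects targets. The members overlap in their targets, and miR-96 and miR-182 both repress the transcription factor Foxo1. Each hairpin precursor yields a 5p and a 3p strand, and for these hairpins the 5p strand is the guide that is normally retained.

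The mature sequences show why the 3 are treated as a family and how alike their probes' targets are. They are given 5′ to 3′ as in RefSeq, with the seed in capitals.
mmu-miR-183-5p: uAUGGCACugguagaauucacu
mmu-miR-96-5p: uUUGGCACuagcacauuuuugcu
mmu-miR-182-5p: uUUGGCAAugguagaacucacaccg
Bases 3 to 7 (UGGCA) were common to the 3. The seeds of miR-96-5p and miR-182-5p shared bases 2 to 7 (UUGGCA), and miR-183-5p and miR-96-5p shared bases 3 to 9 (UGGCACU). Aligned at the 5′ end without gaps, miR-183-5p matched miR-182-5p at 18 of 22 bases. It matched miR-96-5p at 13 of 22 bases, and miR-96-5p matched miR-182-5p at 12 of 23 bases. The pair with the most alike sequences was therefore miR-183-5p and miR-182-5p. The capture sequences of the probes were not used here, and whether either miRNA binds the other's probe was not tested. Among the 1679 mature names of the RefSeq table, miR-1271-5p alone had the seed of miR-96-5p, and no array probe carried its name. No other entry had the seed of miR-183-5p or of miR-182-5p.

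In RefSeq (build GRCm38.p6) the hairpins lie on the minus strand, in the order Mir183 at chr6:30169668-30169737, Mir96 at chr6:30169446-30169551 and Mir182 at chr6:30165918-30165992. Mir183 and Mir96 are 116 bases apart, and Mir96 and Mir182 are 3453 bases apart. The long non-coding RNA gene Mirc35hg overlaps the span of the 3 hairpins, and the nearest protein-coding genes are Nrf1 and Ube2h.

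The 3 probes gave very unequal signals. Values are spot intensities minus local background (units), averaged over the 4 spots of a probe on each array. The detection threshold of an array was the 95th percentile of its 57 probes for viral miRNAs, which mouse cells do not encode, and it lay between 1627 and 3233 units. Of the 1118 mouse probes, 129 exceeded it on at least 3 of the 6 arrays and were tested. Spots labelled Empty, 1132 per array, had a 95th percentile of 2 or 3 units. On each array, between 97 and 147 mouse probes exceeded the threshold. The endothelial label was set beside 9 miRNAs typical of these cells. Of those 9, 7 passed, among them miR-126a-3p, encoded within the endothelial gene Egfl7, which was above the threshold on 6 of 6 arrays. The probes for miR-222-3p and miR-23a-3p did not pass. Red cell and liver miRNAs, given below, passed as well, so passing does not single out endothelial cells.

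The miR-183-5p probe was bright on every array. It read 34472, 40704 and 26530.5 units in high phosphate replicates 1, 2 and 3, against 39514.5, 34465.5 and 45472 units in the normal phosphate replicates. The lowest array was high phosphate replicate 3, the highest was normal phosphate replicate 3, and the groups overlapped. These signals were 12.9 to 19.5 times the threshold of their arrays. The 4 spots agreed closely, with a coefficient of variation (CV) between 3.52% and 14.8%. The largest CV was that of high phosphate replicate 2, whose spots ran from 34965 to 47546 units. Over all tested probes and arrays the median spot CV was 12.3%.

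The miR-182-5p probe was also above the threshold on 6 of 6 arrays. It read 15177, 10194 and 10273 units in high phosphate, against 12758.5, 13695 and 12666 units in normal phosphate. High phosphate replicate 1 was the highest array and the other two high phosphate arrays were the lowest, so the normal phosphate arrays lay inside the range of the high phosphate arrays. The signals were 3.92 to 6.50 times the threshold. On high phosphate replicate 2 the 4 spots read 12590, 6145, 7695 and 14347 units, a CV of 38.3% and a 2.33-fold span. The next largest CV was 20.3%, on normal phosphate replicate 2, where a single spot read 9625 units and the others 14325 to 15746. The low value of high phosphate replicate 2 therefore rests on 2 dim spots of 4.

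**Figure D1:**
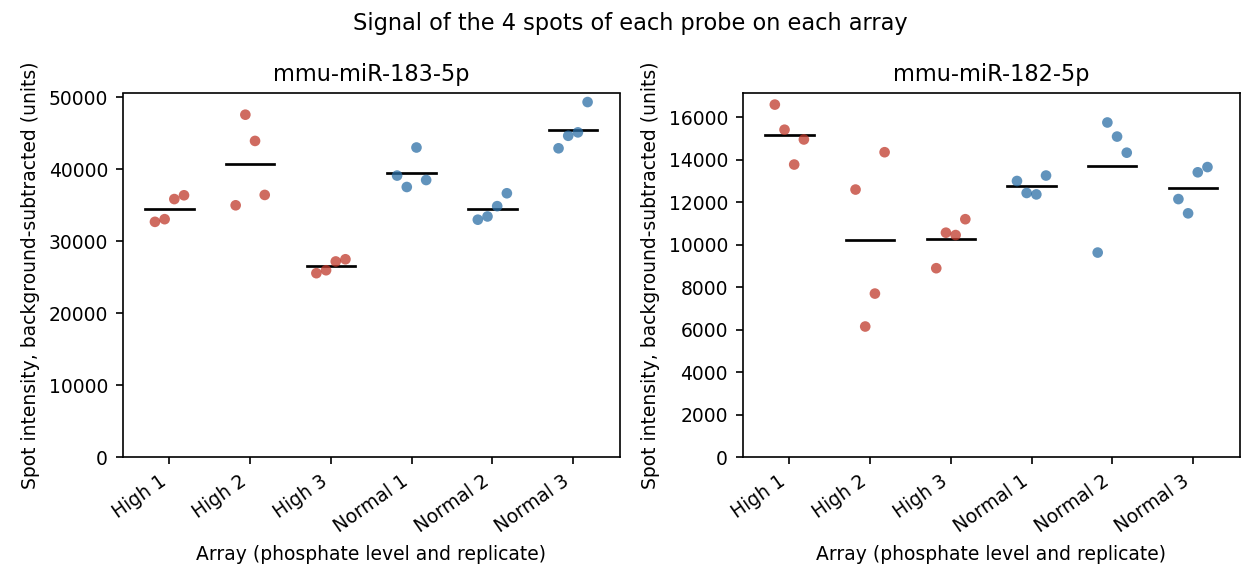
Background-subtracted intensity (units) of each spot (points) and the mean of the 4 spots (black line) for miR-183-5p and miR-182-5p on each array, high phosphate in red and normal phosphate in blue. The groups overlap for both probes, and the spots of miR-182-5p on high phosphate replicate 2 spread from 6145 to 14347 units.

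The miR-96-5p probe read within a few units of the Empty spots. It read 2.25, 4.25 and 2.75 units in high phosphate, against 0.00, 4.25 and 0.75 units in normal phosphate. Its single spots ran from -3 to 6 units, where the lowest threshold of any array was 1627 units. It was above the threshold on 0 of 6 arrays and at most 0.00202 times that level. On all 3 high phosphate arrays and on 1 of 3 normal phosphate arrays, replicate 2, its mean exceeded the 95th percentile of the Empty spots, which was 2 units there, while 897 of the 1118 mouse probes exceeded that percentile on all 6 arrays. Signal of miR-96-5p was therefore not detectable above the threshold in either group, which gives a bound and not an absence. Whether this probe binds its miRNA was not tested. Different probes are not calibrated against each other, so the gap between the 3 signals is one of probe brightness and does not give the ratio of the miRNAs.

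The opposite strands showed another order. They are printed with bases 2 to 8 in capitals, since miR-96-3p was read far above the Empty spots and miR-96-5p within a few units of them.
mmu-miR-183-3p: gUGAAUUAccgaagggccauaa
mmu-miR-96-3p: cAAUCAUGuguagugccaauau
mmu-miR-182-3p: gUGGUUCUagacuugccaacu
The probe for miR-96-3p, the passenger strand, read 2714, 1503 and 2411.5 units in high phosphate, against 1550.25, 1668 and 1149.5 units in normal phosphate. It was above the Empty spots on 6 of 6 arrays and above the threshold on 2, high phosphate replicates 1 and 3, and so missed the filter of 3 arrays. Its spots varied more than those of the 5p members in high phosphate, with CVs of 30.6%, 40.1% and 38.8%, against 2.71%, 14.9% and 18.6% in normal phosphate. The miR-183-3p probe ran from 98.5 to 209.5 units and the miR-182-3p probe from 7.25 to 28.5 units, each below the threshold on all 6 arrays and above the 95th percentile of the Empty spots on all 6. For Mir183 and Mir182 the 5p probe was thus above the threshold and the 3p probe below it on every array. For Mir96 the 5p probe was far below the threshold and the 3p probe lay near the threshold.

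**Figure D2:**
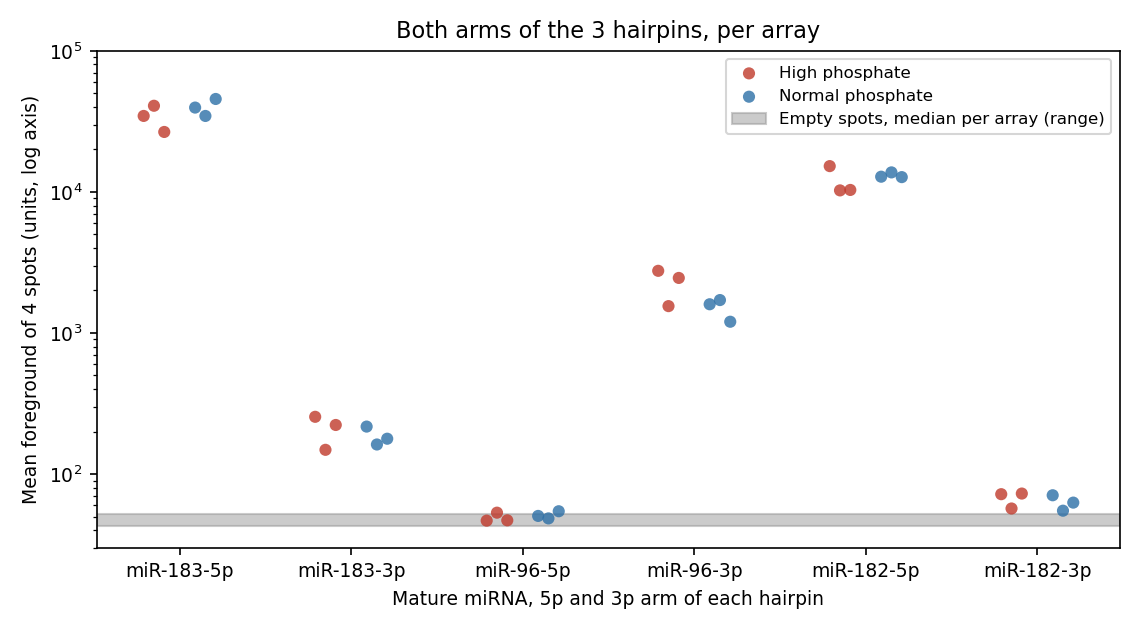
Mean foreground of the 4 spots (units, log axis, local background not removed) for the 5p and 3p strand of each hairpin, 3 high phosphate arrays in red and 3 normal phosphate arrays in blue, with the range of the Empty spot medians in grey. On this foreground scale the miR-96-5p points lie near the grey band, while miR-96-3p lies well above it in both groups.

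High phosphate was then compared with normal phosphate. Values were corrected with limma's normexp method, quantile normalized over the miRNA probes and taken to log2, and each tested probe was fitted with limma. Neither tested member passed. With 0 calls among 129 probes, percent called was 0% (limma, Benjamini-Hochberg), and 9 probes had an unadjusted p under 0.05, neither member among them. Only miR-183-5p and miR-182-5p passed the filter on dim probes, so miR-96-5p has no value from this fit.

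For miR-183-5p the normalized log2 level averaged 15.21 ± 0.05 in high phosphate and 15.13 ± 0.06 in normal phosphate (SD, n = 3 each). The log2 difference was 0.08 (SE 0.18, 95% interval -0.33 to 0.49), or 1.06-fold with an interval of 0.794 to 1.41 (limma, Benjamini-Hochberg adjusted p = 0.948). Quantile normalization replaces a value by the mean value at its rank, and the bright miR-183-5p probe received the same level of 15.19 on 3 arrays, namely high phosphate replicates 2 and 3 and normal phosphate replicate 2. Before scaling, the same 3 arrays read 40704, 26530.5 and 34465.5 units. The small spread after normalization is that of ranks, and the difference before scaling was -0.25 (SE 0.29, limma, Benjamini-Hochberg adjusted p = 0.730).

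For miR-182-5p the normalized log2 level averaged 13.68 ± 0.20 in high phosphate and 13.49 ± 0.08 in normal phosphate (SD, n = 3 each). The log2 difference was 0.20 (SE 0.20, 95% interval -0.26 to 0.66), or 1.15-fold with an interval of 0.835 to 1.58 (limma, Benjamini-Hochberg adjusted p = 0.873). High phosphate replicate 2 stood at 13.46, inside the normal phosphate range of 13.42 to 13.58, whereas replicates 1 and 3 stood above it at 13.83 and 13.77. Without high phosphate replicate 2, the array with the widely spread spots, the difference was 0.31 (SE 0.20, limma, Benjamini-Hochberg adjusted p = 0.671). Before scaling it was -0.16 (SE 0.29, adjusted p = 0.816).

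The sign of both differences depended on the common level chosen. The median log2 difference of all 129 tested probes was -0.02 after quantile normalization, -0.22 before scaling, 0.45 with scaling to 47 spike control probes and 0.48 with scaling to the Hy3 dye spots. Relative to that median, miR-183-5p stood at -0.03 and miR-182-5p at 0.06 before scaling, with either control scaling and with median scaling. With quantile normalization they stood at 0.10 and 0.21 relative to the median. A scaling of whole arrays shifts every probe alike, so -0.03 and 0.06 are fixed across those settings and are no separate results. Neither member passed the test under any of these scalings. The mean log2 signal of the spike controls did not overlap between the groups, at 9.38 to 9.90 on the high phosphate arrays and 10.17 to 10.49 on the normal phosphate arrays. That of the Hy3 dye spots did not overlap either, at 8.46 to 8.84 on the high phosphate arrays and 9.15 to 9.54 on the normal phosphate arrays. With Hy3 scaling 7 of the 129 probes were called, all 7 higher in high phosphate and neither member among them. The part of these control signals in the differences was not tested.

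**Figure D3:**
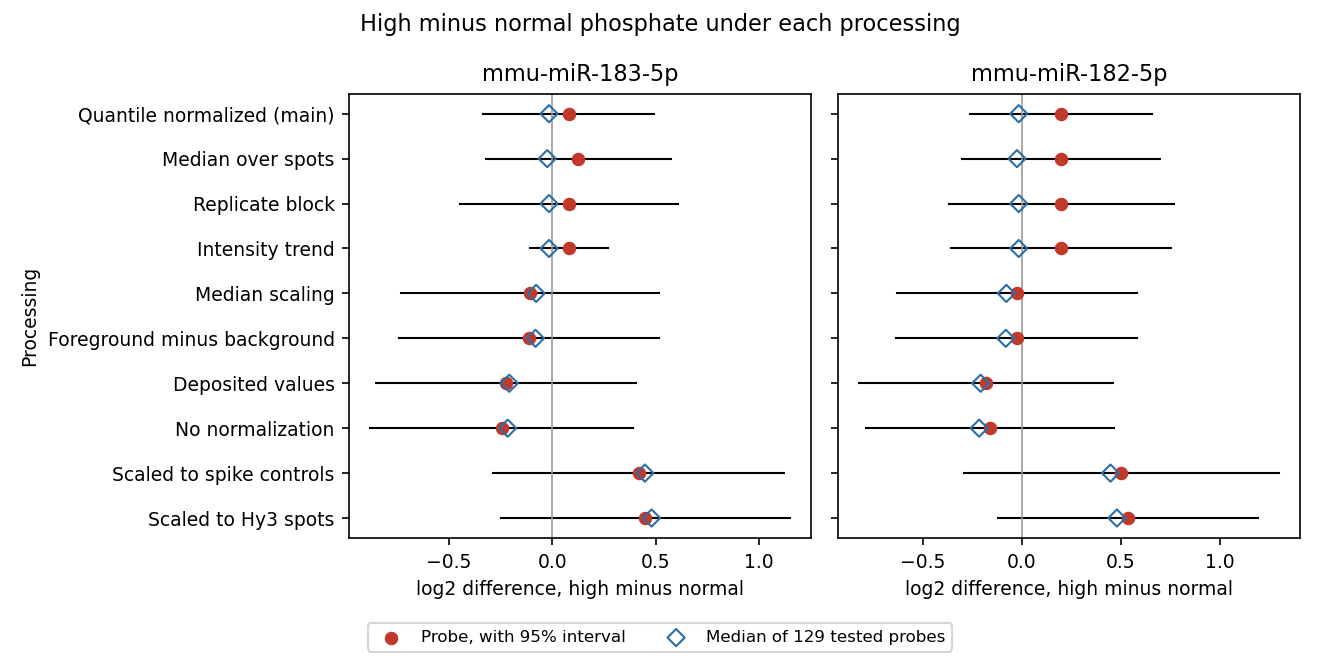
Log2 difference, high minus normal phosphate, of miR-183-5p and miR-182-5p (red points, with the 95% interval as a line) under each processing, beside the median difference of the 129 tested probes (open blue diamonds). Every interval includes 0. For miR-183-5p the points run from -0.25 before scaling to 0.45 with Hy3 scaling. A scaling of whole arrays shifts points and diamonds by the same amount.

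For miR-96-5p, far below the threshold, the normalized log2 values were 6.10 to 6.19 in high phosphate and 6.12 to 6.18 in normal phosphate. They come from signals of a few units, to which the background correction added an offset of 50 units. The group means differed by -0.02 (2-sided exact permutation p = 0.7), and no fold is given since both groups are below the threshold. For miR-96-3p the normalized log2 level averaged 11.12 ± 0.50 in high phosphate and 10.55 ± 0.30 in normal phosphate (SD, n = 3 each), a difference of 0.57 (2-sided exact permutation p = 0.3). A fit with a lower filter of 50 units, which kept 688 probes, gave it an SE of 0.30 and a 95% interval of -0.10 to 1.25 (limma, Benjamini-Hochberg adjusted p = 0.673). High phosphate replicate 2 stood at 10.56, inside the normal phosphate range of 10.22 to 10.81, and replicates 1 and 3 stood above it, as they did for normalized miR-182-5p. The groups of miR-183-5p, miR-182-5p and miR-96-3p all overlapped, where 10.1% of the 129 tested probes had groups without overlap after normalization and 14.7% before scaling. With 3 against 3 arrays the smallest possible exact p is 0.1.

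The authors' deposited table gave a fold of high over normal phosphate of 0.864 for miR-183-5p (p = 0.345), 0.903 for miR-182-5p (p = 0.560) and 1.45 for miR-96-3p (p = 0.177). In the authors' deposited table the false discovery rates of these probes were 0.794, 0.847 and 0.794. The authors' deposited table also lists a fold of 1.51 for miR-96-5p, which rests on the signals of a few units given above.

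The balance of the pair within each array was measured as the log2 ratio of the miR-183-5p signal to the miR-182-5p signal, which leaves out the brightness of the array. Before scaling it was 1.18, 1.99 and 1.36 in high phosphate replicates 1, 2 and 3, against 1.63, 1.32 and 1.84 in the normal phosphate replicates. The lowest and the highest ratio both came from high phosphate arrays. The highest was that of replicate 2, where the miR-182-5p spots spread from 6145 to 14347 units. The mean was 1.51 ± 0.43 in high phosphate and 1.60 ± 0.26 in normal phosphate (SD, n = 3 each), a difference of -0.08 (2-sided exact permutation p = 0.9). After quantile normalization the means were 1.53 ± 0.18 and 1.65 ± 0.04 (SD, n = 3 each), with a difference of -0.12 (2-sided exact permutation p = 0.4). The high phosphate arrays alone spanned 0.81 in this log2 ratio before scaling, and no change of the balance with phosphate was detectable at this number of arrays. Without high phosphate replicate 2 the difference after normalization was -0.22 (2-sided exact permutation p = 0.1, the smallest possible).

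Co-variation over the arrays was measured for the 3 pairs of members, which come from a single transcript. Between miR-183-5p and miR-182-5p, Pearson's r over the 6 arrays was 0.190 before scaling (exact permutation p = 0.739, 0.988 adjusted over 3 pairs), with a Spearman's rho of -0.314 (exact permutation p = 0.564, 0.658 adjusted). With median scaling r was -0.695 (exact permutation p = 0.117, 0.350 adjusted) and rho -0.829 (exact permutation p = 0.0583, 0.175 adjusted). After quantile normalization r was 0.789 (exact permutation p = 0.0500, 0.150 adjusted) and rho 0.893 (exact permutation p = 0.0333, 0.100 adjusted). The sign of the relation therefore depended on the scaling, and none of the 3 values passed the adjustment.

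Leaving out the 2 arrays farthest from the median of miR-183-5p, r was -0.874 before scaling, -0.267 with median scaling and 0.491 after quantile normalization. The last value rests on normal phosphate replicate 3 alone, since the other 3 arrays left share the miR-183-5p level of 15.19. The sizes of r, and before scaling its sign, thus rest on those arrays. Deviations from the group means gave an r of -0.002 before scaling, -0.756 with median scaling and 0.635 after quantile normalization, and 3 arrays a group are too few for a value within each. For miR-96-5p, which carried no signal above the threshold, r after quantile normalization was -0.264 with miR-183-5p (exact permutation p = 0.633, 0.633 adjusted; rho -0.395, exact permutation p = 0.467, 0.467 adjusted) and -0.725 with miR-182-5p (exact permutation p = 0.131, 0.196 adjusted; rho -0.638, exact permutation p = 0.194, 0.292 adjusted). Without the 2 arrays farthest from the median of miR-183-5p the first was -0.413, which again rests on normal phosphate replicate 3 alone. Without the 2 farthest from the median of miR-182-5p, high phosphate replicates 1 and 3, the second was 0.05. Before scaling they were -0.04 and 0.297 (exact permutation p = 0.988 and 0.628, each 0.988 adjusted), with a rho of 0.543 and -0.257 (exact permutation p = 0.297 and 0.658, each 0.658 adjusted). On that scale miR-96-5p stood at 6.86 on normal phosphate replicate 2 and between 5.88 and 5.98 on the other arrays. Its mean signal on normal phosphate replicate 2 was 4.25 units, as on high phosphate replicate 2, which stood at 5.98. The level of 6.86 therefore does not reflect a brighter spot signal.

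**Figure D4:**
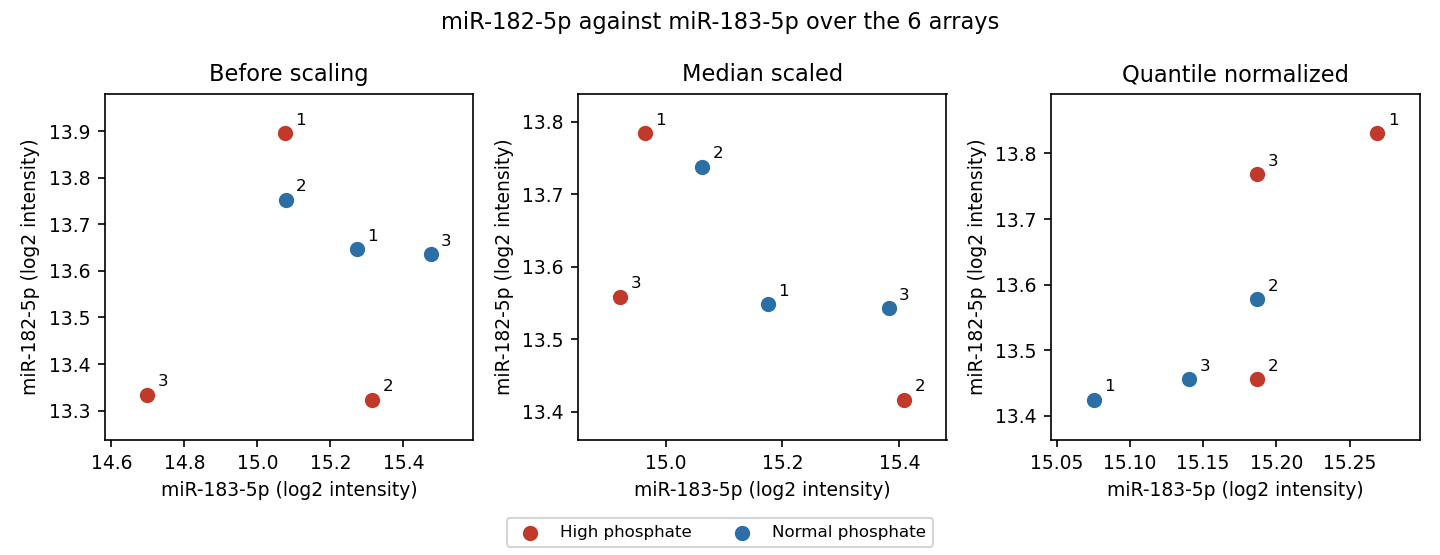
Log2 intensity of miR-182-5p against that of miR-183-5p on the 6 arrays (high phosphate in red, normal phosphate in blue, replicate numbers beside the points) before scaling, after median scaling and after quantile normalization. The cloud falls with median scaling (r = -0.695) and climbs after quantile normalization (r = 0.789).

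Over the 6 arrays, the probes whose normalized pattern was most like that of miR-183-5p were miR-22-5p (r = 0.969), miR-216a-3p (0.906) and miR-5625-3p (0.868). For miR-182-5p they were miR-344d-3-5p (r = 0.972), miR-29b-1-5p (0.905) and miR-1957a (0.899). None of these comes from the cluster. All of them had a higher normalized mean in high phosphate, as did 62 of the 129 tested probes. The r values were not centred on the group means, so a difference between the groups enters them. Among the other 128 tested probes, miR-182-5p ranked 6 in likeness to miR-183-5p, and miR-183-5p ranked 8 in likeness to miR-182-5p. These ranks hold for the quantile normalized scale only, where the r of this pair was 0.789. It was 0.190 before scaling and -0.695 with median scaling, and no ranks were taken on those scales. The arrays share their scaling, the best of 128 values over 6 arrays is high by selection, and these figures are a description.

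The cluster was set beside other miRNAs that accompany it in epithelia and in the retina. Of all 1118 mouse probes, 897 were above the 95th percentile of the Empty spots on all 6 arrays, and 129 passed the filter. Of 8 epithelial miRNAs outside the cluster, 8 were above that percentile on all 6 arrays, and 1 passed the filter. That was miR-141-3p of the miR-200 family, which maintains epithelial identity, at 3361 ± 383 units in high phosphate and 3562 ± 296 units in normal phosphate (SD, n = 3 each). Its log2 difference was 0.07 (SE 0.19, limma, Benjamini-Hochberg adjusted p = 0.948). Its family members were dimmer. The probes for miR-200c-3p at 202 to 312.5 units, miR-200b-3p at 476 to 595 units and miR-429-3p at 273.5 to 1933.5 units exceeded the threshold on no array. That for miR-200a-3p, at 757 to 2279 units, exceeded it on 1 array. The summed signal of the 8 epithelial probes was 6107 to 8588 units on the high phosphate arrays and 8732 to 13102.5 units on the normal phosphate arrays, without overlap. The summed signal of all 129 tested probes did not overlap either, at 963598 to 1232900 units on the high phosphate arrays and 1263940 to 1419370 units on the normal phosphate arrays. Within the list, miR-200b-3p had the opposite order of means, 588 ± 5.9 units in high phosphate and 493 ± 27 units in normal phosphate (SD, n = 3 each).

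Of 5 retinal and neuronal miRNAs, 2 passed the filter, beside 129 of all 1118 mouse probes. They were the related miR-204-5p at -0.08 (SE 0.27) and miR-211-5p at -0.40 (SE 0.26) on the log2 scale (limma, Benjamini-Hochberg adjusted p = 0.984 and 0.853). The neuronal miR-124-3p exceeded the threshold on none of the arrays, at 541 ± 361 units in high phosphate and 191 ± 42 units in normal phosphate (SD, n = 3 each). None of the epithelial or retinal probes passed the test in either direction. Their medians were 0.07 for the epithelial probe and -0.24 for the 2 retinal and neuronal probes, beside -0.02 for all 129.

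Signal of blood and liver miRNAs was measured because the medium held serum. Of 5 red cell and liver miRNAs listed, 4 matched a probe by exact name and all 4 passed the filter, beside 129 of all 1118 mouse probes. These 4 were miR-451a, miR-144-3p, miR-16-5p and miR-122-5p. Their summed signal was 57178 to 64815.5 units on the high phosphate arrays and 81161.5 to 89137 units on the normal phosphate arrays, without overlap. The summed signal of all 129 tested probes, given above, did not overlap either. The median log2 difference of the 4 after normalization was -0.23, and 0 of 4 passed the test. The fifth, the red cell miRNA miR-486-5p, is read by a probe shared by miR-486a-5p and miR-486b-5p, which averaged 9553 ± 1620 units in high phosphate and 11884.5 ± 2628 units in normal phosphate (SD, n = 3 each). Its log2 difference after normalization was -0.01 (SE 0.21, limma, Benjamini-Hochberg adjusted p = 0.999), and with it the median of the 5 was -0.19. The endothelial list had a summed signal of 76998 to 119424 units in high phosphate and 107524 to 144757 units in normal phosphate, a median of -0.28 over 7 tested probes and 0 calls. The part of serum or of other cells in the signals of miR-183-5p and miR-182-5p was not tested.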

How the data were processed

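Vesicle RNA was labelled with Hy3 and read on 6 one-colour arrays, per the labels' protocols. The authors deposited spot intensities as foreground and as foreground minus background, per the file headers, for 15840 spots. The authors' deposited normalized intensities were the median background-subtracted spot over an array-specific factor of 319 to 344.5 units, as a comparison with the spots showed. The deposited value table held the same numbers. The authors also deposited a fold (ratio) with its p-value and false discovery rate for named probes. A further 18 columns of that table were not used. The sources used here name no scanner or image software.

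Spots were corrected with normexp (offset 50, limma 3.58.1, R 4.3.3), averaged per probe, quantile normalized over mouse and viral probes and taken to log2. Probes above the 95th percentile of the viral probes on at least 3 arrays entered a limma fit (lmFit, eBayes) of high over normal phosphate, and 2-sided p-values were adjusted by Benjamini-Hochberg over all tested probes (threshold 0.05). Single values were compared with 2-sided exact permutation tests in Python 3.11.15. The fit was tested on simulated data. Members, lists and tests were chosen with earlier results of these data known. Named probes were the members, their opposite strands, the 3 tested probes most correlated with each tested member, probes sharing bases 2 to 7, and listed probes used for comparison. No probe carries the exact list name mmu-miR-486-5p, and the probe shared by miR-486a-5p and miR-486b-5p was added to that list after seeing the data, as a named alternative. The number of arrays limits the precision, with a median 95% interval of 0.61 to either side on the log2 scale. Alternatives changed the background correction, the normalization, the filter, how spots were summarised, the variance model and the replicate block, and left out each array in turn.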

Additional observations from a re-analysis of the deposited data

How the results depend on the processing

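Over the alternatives tried, miR-183-5p and miR-182-5p never passed the test (limma, Benjamini-Hochberg adjusted p between 0.265 and 0.981). No filter, the lower filter, the intensity trend and the replicate block leave their estimates as they are. With median scaling the log2 differences were -0.11 and -0.0231, with foreground minus background -0.11 and -0.0258, with the deposited values -0.22 and -0.18, and without normalization -0.25 and -0.16. Both stayed positive with spike scaling, Hy3 scaling and the median over spots. Among the scalings of whole arrays the sign went with the common level, as given above. Which common level is right was not tested. Leaving out each array moved miR-183-5p between 0.05 and 0.11 and miR-182-5p between 0.13 and 0.31. The count of called probes was 0 in all alternatives except scaling to the Hy3 spots, which gave 7, neither member among them. For miR-96-5p the difference turned to 0.32 with spike scaling and 0.35 with Hy3 scaling, and left-out arrays moved it between -0.0435 and 0.0014, far below the threshold. The difference in the ratio of miR-183-5p to miR-182-5p ran from -0.22 to -0.04 over the alternatives and from -0.22 to -0.06 when an array was left out. A scaling of whole arrays cannot change this ratio, so the scalings are no separate check of it. The correlation of this pair turned to -0.695 with median scaling and -0.688 with foreground minus background. It was 0.750 with spike scaling, 0.602 with Hy3 scaling, 0.733 with the median over spots, 0.190 without normalization and 0.227 with the deposited values. That of miR-183-5p with miR-96-5p turned to 0.362 with spike scaling and 0.0843 with Hy3 scaling, and that of miR-182-5p with miR-96-5p to 0.263 with median scaling, 0.297 without normalization, 0.680 with spike scaling and 0.285 with Hy3 scaling. Ratios with miR-96-5p were not formed, since its signal was within a few units of the Empty spots and 0 on an array. Its differences and correlations have no value with foreground minus background or the deposited values, where all arrays lie at the floor. With single arrays left out, the correlation of miR-183-5p with miR-182-5p ran from 0.581 to 0.889, with exact permutation p = 0.0333 without high phosphate replicate 2. That of miR-183-5p with miR-96-5p ran from -0.768 to 0.334, and was positive without high phosphate replicate 1. That of miR-182-5p with miR-96-5p ran from -0.994 to -0.529, with exact permutation p = 0.0167 without normal phosphate replicate 1. Replicate numbers are shared by both groups in the labels, but same-numbered arrays deviated together with correlations of 0.222, 0.03 and -0.184 over the 129 probes, and of the high phosphate arrays only replicate 1 correlated best with its own number, so the numbers were not taken as pairs. With the replicate block the differences were 0.08 (SE 0.22) for miR-183-5p and 0.20 (SE 0.23) for miR-182-5p, and 0 probes were called.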
